A study of Mus musculus with 8 samples.

Results

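Chymotrypsins, elastases and carboxypeptidases are the protein-digesting enzymes that pancreatic acinar cells secrete beside trypsin. The 8 genes Cela1, Cela2a, Cela3b, Ctrb1, Ctrc, Ctrl, Cpa1 and Cpb1 were taken by name, and a gene was counted as measured where the arrays held a feature annotated with its symbol and no other. That left 7 of the 8, among 18820 genes measured in all. The only feature of Cela2a was also annotated to Casp9, so its value cannot be given to Cela2a, and it is described apart.

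The study profiled total RNA of mouse pancreas on 8 whole-transcript arrays, 4 of inducible Sel1L knockout and 4 labelled wild type. Per the labels' protocols, the knockout mice were fl/fl;ERCre+ and the controls were fl/fl;ERCre- littermates. Both groups thus carried Sel1L alleles with exon 6 between loxP sites and lacked the lacZ-neo cassette, which a βActin-FLPe line had removed. Only the knockout mice carried Cre fused to the estrogen receptor, driven by an actin promoter, and controls lacked it, so the effects of Sel1L deletion and of active Cre cannot be told apart. The promoter is not limited to pancreas, so effects of deletion in other organs cannot be told apart from those in pancreas either. The ES cells were C57BL/6N and later crosses were to C57BL/6J mice, and C57BL/6J is the background the labels state. Age-matched littermates of 8 to 20 weeks received tamoxifen, 5 mg/ml in sunflower oil at 5 μl per g body weight, daily for 3 days. The interval between tamoxifen and tissue collection is not stated in the labels. Replicates 1 to 4 of each group are not said in the labels to be separate animals, and p-values may therefore reflect technical spread alone.

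Acinar cells make these enzymes as inactive zymogens on the rough endoplasmic reticulum (ER), store them in granules and release them into the duct, and trypsin activates them in the gut. Chymotrypsins cut proteins after bulky hydrophobic residues and elastases after other, often small, ones, while carboxypeptidases trim the ends that these cuts leave, type A taking hydrophobic and type B basic residues. Sel1L is the partner of the ubiquitin ligase Hrd1 in ER-associated degradation, the route by which misfolded ER proteins reach the proteasome. Acinar enzyme genes are known targets of PTF1, a complex of Ptf1a, an E protein and Rbpjl or Rbpj that reads an E-box next to a TTTCCC box.

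The RefSeq promoter table (GRCm38.p6) held 7 of the 8 genes. The 250 bases before the annotated start are given here for 4 of them, chosen because Cela1 and Cela3b fell and Ctrb1 and Cpa1 did not pass the test. Capitals mark matches on either strand to the E-boxes CACCTG and CAGCTG, the TTTCCC box, the nuclear receptor half-site AAGGTCA and the TATAAA box. The motif CCACG was also searched and matched in 0 of the 7 windows.
Cela1, chr15:100687921-100688170, minus strand: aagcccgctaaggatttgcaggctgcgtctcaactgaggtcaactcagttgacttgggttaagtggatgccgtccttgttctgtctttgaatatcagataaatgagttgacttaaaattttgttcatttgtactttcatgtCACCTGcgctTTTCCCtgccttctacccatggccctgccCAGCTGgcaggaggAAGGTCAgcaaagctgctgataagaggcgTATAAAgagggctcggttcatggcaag
Cela3b, chr4:137430521-137430770, minus strand: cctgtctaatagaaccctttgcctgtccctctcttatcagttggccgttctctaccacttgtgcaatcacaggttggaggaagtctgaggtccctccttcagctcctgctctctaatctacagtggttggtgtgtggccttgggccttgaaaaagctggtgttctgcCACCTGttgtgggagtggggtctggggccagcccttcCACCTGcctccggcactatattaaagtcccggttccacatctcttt
Ctrb1, chr8:111691011-111691260, minus strand: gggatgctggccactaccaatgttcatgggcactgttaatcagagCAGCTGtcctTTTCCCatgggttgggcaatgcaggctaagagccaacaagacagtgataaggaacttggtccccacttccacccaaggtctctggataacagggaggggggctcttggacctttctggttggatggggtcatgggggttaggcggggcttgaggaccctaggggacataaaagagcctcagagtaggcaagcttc
Cpa1, chr6:30638968-30639217, plus strand: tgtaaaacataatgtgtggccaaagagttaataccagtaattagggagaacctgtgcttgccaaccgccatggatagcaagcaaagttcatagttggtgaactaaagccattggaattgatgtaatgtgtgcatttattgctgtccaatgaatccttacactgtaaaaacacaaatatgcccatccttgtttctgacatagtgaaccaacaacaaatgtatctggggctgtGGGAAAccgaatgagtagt

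CACCTG was present in 5 of the 7 windows (Cela1, Cela2a, Cela3b, Cpb1 and Ctrl), against 17.2% of all 32851 windows of the same length. CAGCTG was present in 3 of the 7 (Cela1, Ctrb1 and Ctrl), against 13% of all windows, and TTTCCC in 4 of the 7 (Cela1, Cela2a, Cpa1 and Ctrb1), against 21.9%. AAGGTCA and TATAAA were each present in the Cela1 window only, where 4.08% and 12.4% of all windows hold them. CCACG was present in 28.3% of all windows. In Cela1 and Ctrb1 an E-box and a TTTCCC box stood in the same orientation with 4 bases between them, as CACCTGcgctTTTCCC starting 109 bases before the start of Cela1 and CAGCTGtcctTTTCCC starting 205 bases before that of Ctrb1. The joint pattern CANCTGNNNNTTTCCC, read on both strands and set after those windows had been seen, was present in 9 of the 32851 windows (0.0274%). The others were those of the trypsinogen gene Prss1 and of Esp18, Gm33102, Gm36876, Gm5771, Pacc1 and Tnfrsf9. Of these, only Gm5771, Pacc1 and Tnfrsf9 were measured, with log2 differences (knockout minus wild type) of 0.94, 0.30 and -0.09. None passed the test (limma adjusted p = 0.168, 0.0819 and 0.515). Of the 2 genes of the list with this pattern, Cela1 had the largest fall that passed the test and Ctrb1 did not pass it, as the values below show. These are matches of letters, not measured binding sites.

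Values are log2 signals made with RMA (robust multi-array average), and a difference is the knockout mean minus the wild type mean on that scale. A gene was called at a Benjamini-Hochberg adjusted p under 0.05 over all 18820 genes in limma. The targeted gene Sel1l measured 11.68, 11.66, 11.70 and 11.45 in the knockout arrays, against 12.37, 12.38, 12.38 and 12.39 in the wild type arrays (-0.76, SE 0.0788, limma adjusted p = 0.000196). Array medians lay between 4.94 and 5.05 and array maxima between 14.29 and 14.37. The highest feature of every array was that of the ribosomal RNA Rn28s1. Acinar enzymes, which define the labelled tissue, were among the brightest features of every array, with Ctrb1 ranked 3 or 4 of all 35556 features in knockout arrays and 2 in wild type arrays.

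Of the 7 measured genes, 4 fell in the knockout arrays and 0 rose: Cela1, Cela3b, Ctrl and Cpb1. After quantile normalization 1 of the 7 fell, Cela1, and after centring arrays on their medians 6 did. Over all genes 12.6% fell and 16.1% rose on the deposited values. The difference was negative for all 7, with a median of -0.30, against -0.04 over all genes. Every knockout value lay below every wild type value for 6 of the 7, which was the case for 14.6% of all genes. In bulk tissue, fewer acinar cells and less RNA per cell cannot be told apart. Of all calls in either direction, 3027 were higher and 2379 lower on the deposited values. They were 1815 and 2414 after quantile normalization and 2257 and 3969 after centring arrays on their medians, so the balance of directions depends on the scaling. Set against the 2414 of 18820 genes lower after quantile normalization, 1 of the 7 is close to the share over all genes. After centring, 6 of the 7 is above the share that 3969 of 18820 genes gives.

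**Figure D1:**
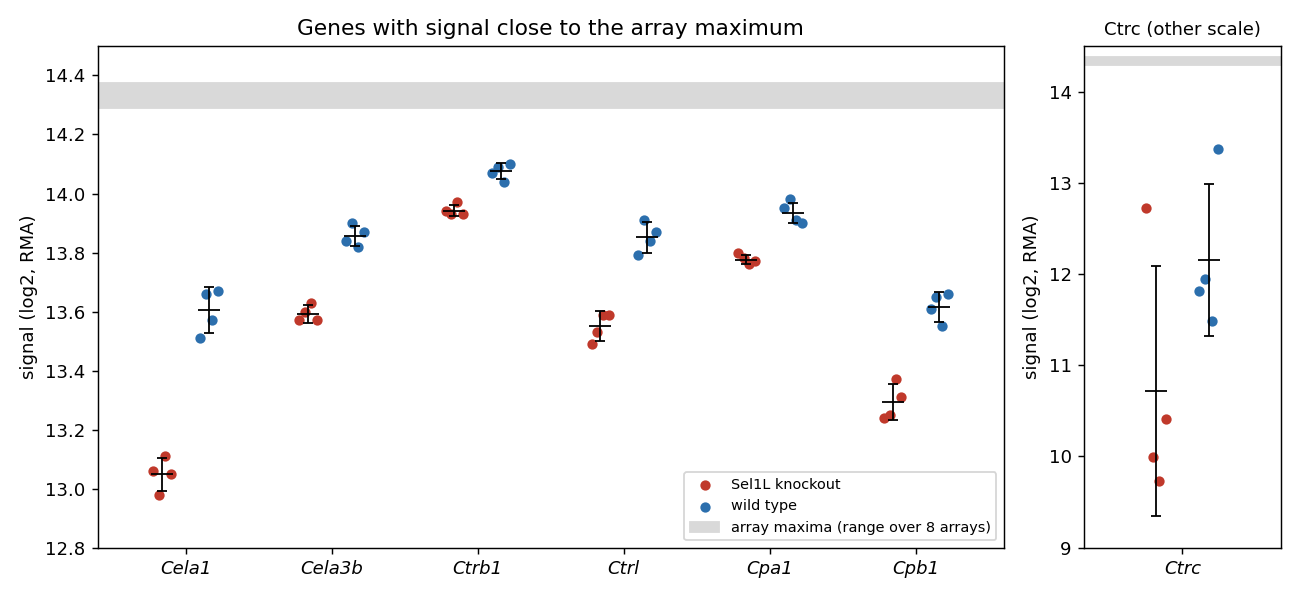
Log2 RMA signal of the 6 genes with a mean of at least 13 (left) and of Ctrc on its own scale (right), in 4 Sel1L knockout arrays (red) and 4 wild type arrays (blue). Points are arrays, bars are the mean and SD, and the grey band is the range of the 8 array maxima. For the 6 genes on the left all knockout points lie below all wild type points, while the Ctrc groups overlap.

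Both elastase genes with a feature of their own fell. Cela1 measured 13.06, 12.98, 13.11 and 13.05 in the knockout arrays, against 13.51, 13.66, 13.57 and 13.67 in the wild type arrays. All 4 knockout values were lower, and the gap between the groups was wider than the spread within either. The difference was -0.56 (SE 0.0746, limma adjusted p = 0.00077), so that the knockout signal was 68.0% of the wild type signal (95% interval 60.6% to 76.3%). Cela1 encodes pancreatic elastase 1, whose human counterpart is not made in the pancreas. Under the 18 other settings tried its difference stayed between -0.63 and -0.41, with adjusted p-values of 0.00703 or less.

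Cela3b measured 13.57, 13.60, 13.63 and 13.57 in the knockout arrays, against 13.84, 13.90, 13.82 and 13.87 in the wild type arrays. The groups did not overlap, and their SDs were 0.0292 and 0.0351. The difference was -0.26 (SE 0.067, limma adjusted p = 0.0167), or 83.2% of the wild type signal (95% interval 75.0% to 92.3%). After quantile normalization the difference was -0.04 (adjusted p = 0.73) and the call was lost. Its neighbour Cela3a, which is not a member, fell by 1.86 (SE 0.211, adjusted p = 0.000316), with 7.31 ± 0.159 in knockout and 9.17 ± 0.485 in wild type pancreas (SD, n = 4 each). Elastase 3 genes are close copies of each other, so their features may share signal and the values of both are uncertain to that extent.

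The feature annotated to both Cela2a and Casp9 measured 13.53, 13.54, 13.59 and 13.63 in the knockout arrays, against 13.77, 13.89, 13.85 and 13.89 in the wild type arrays. Tested with the 18820 genes, it differed by -0.28 (SE 0.0712, limma adjusted p = 0.018), which is close to the value of Cela3b. Casp9, a caspase gene, also had a feature of its own, with 5.71 to 5.96 in knockout and 5.29 to 5.81 in wild type arrays. The share of each gene in the joint feature was not tested. Counting that feature would make it 5 falls.

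Of the chymotrypsin genes, 1 of 3 passed the test. Ctrl, which encodes chymotrypsin-like protease, measured 13.49, 13.53, 13.59 and 13.59 in the knockout arrays, against 13.79, 13.91, 13.84 and 13.87 in the wild type arrays. Its knockout arrays were all lower, by -0.30 on average (SE 0.0708, limma adjusted p = 0.0123), or 81.2% of the wild type signal (95% interval 72.7% to 90.6%). After quantile normalization the difference was -0.05 (adjusted p = 0.604) and the call was lost. Ctrb1, the gene of chymotrypsinogen B, measured 13.94, 13.93, 13.97 and 13.93 in the knockout arrays, against 14.07, 14.09, 14.04 and 14.10 in the wild type arrays. The groups did not overlap here either, yet the difference of -0.13 (SE 0.0658, limma adjusted p = 0.15) did not pass the test. Its 95% interval, not adjusted for the number of genes, ran from -0.28 to 0.01.

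Ctrc encodes chymotrypsin C, which in humans degrades trypsinogen and assists the activation of procarboxypeptidases. It measured 12.72, 9.99, 9.73 and 10.41 in the knockout arrays, against 11.81, 11.95, 11.49 and 13.37 in the wild type arrays. Knockout replicate 1 lay above 3 of the 4 wild type arrays, while the other knockout arrays lay below all of them. Wild type replicate 4 was the highest array. The means were 10.71 ± 1.37 in knockout and 12.16 ± 0.831 in wild type pancreas (SD, n = 4 each), and the difference of -1.44 (SE 0.635, limma adjusted p = 0.113) did not pass the test, with a 95% interval of -2.86 to -0.02.

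The spread of Ctrc within groups was far wider than that of the other 6 genes. Its SD exceeded that of 99.9% of all genes among knockout arrays and of 98.9% among wild type arrays, where the median gene had SDs of 0.121 and 0.169. Knockout replicate 1 decides the call: without it the difference was -2.11 (limma adjusted p = 0.00718), and without wild type replicate 4 it was -1.04 (adjusted p = 0.243). Knockout replicate 1 also held the highest knockout means for macrophage markers (8.56, against 7.48 to 7.78 in the other knockout arrays) and for markers of stellate cells and fibroblasts (8.36, against 7.68 to 7.79). Wild type replicate 4, with 7.97 and 8.24, was inside the range of the other wild type arrays (6.26 to 8.62 and 7.03 to 8.48). The upper ends of both ranges were those of wild type replicate 3, which had the lowest wild type Ctrc value (11.49). The part of these cells in the Ctrc values was not tested.

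Of the carboxypeptidase genes, Cpb1 passed the test and Cpa1 did not. Cpb1, the gene of carboxypeptidase B1, measured 13.24, 13.25, 13.37 and 13.31 in the knockout arrays, against 13.61, 13.65, 13.55 and 13.66 in the wild type arrays. Its groups did not overlap, and the difference was -0.32 (SE 0.0718, limma adjusted p = 0.00955), or 80.0% of the wild type signal (95% interval 71.5% to 89.4%). After quantile normalization the difference was -0.09 (adjusted p = 0.364) and the call was lost. Cpa1, the gene of carboxypeptidase A1, measured 13.80, 13.78, 13.76 and 13.77 in the knockout arrays, against 13.95, 13.98, 13.91 and 13.90 in the wild type arrays. All knockout values were again lower, but by -0.16 only (SE 0.0661, limma adjusted p = 0.1, 95% interval -0.31 to -0.01). For each of the 6 genes other than Ctrc an exact two-sided permutation test gave p = 0.0286, the smallest that 4 against 4 arrays can give, and for Ctrc it gave p = 0.114.

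**Figure D2:**
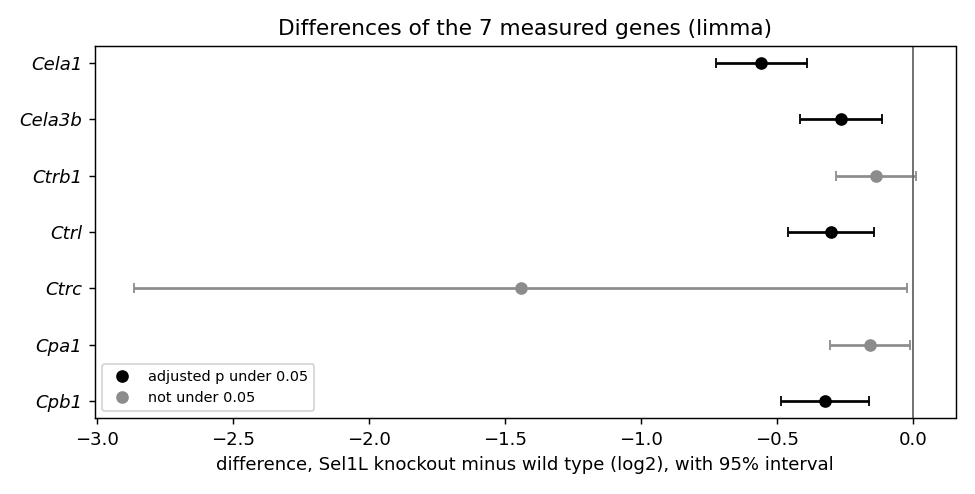
Difference in log2 signal, Sel1L knockout minus wild type, of the 7 measured genes, with 95% intervals from limma that are not adjusted for the number of genes. Cela1, Cela3b, Ctrl and Cpb1 (black) passed the test over all genes, Ctrb1, Cpa1 and Ctrc (grey) did not, and the Ctrc interval spans -2.86 to -0.02.

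Markers of other cells of the tissue moved in part, where 12.6% of all genes fell and 16.1% rose on the deposited values. Of 8 endothelial genes 4 rose and 0 fell, and the mean of their signals was 7.53 to 7.77 in knockout arrays and 7.30 to 7.48 in wild type arrays, but 0 were called after quantile normalization or cyclic loess. Of 8 measured duct cell genes 3 rose (Krt18, Krt8 and Epcam) and 1 fell (Muc1), Krt8 losing its call under each of the 3 other scalings (quantile normalization, median centring and cyclic loess), with means of 8.47 to 8.53 and 8.40 to 8.67. Of 11 islet genes 1 rose, on the deposited values but under none of those 3 scalings, and 1 fell, with means of 6.97 to 8.20 and 6.92 to 8.13. Of 9 lymphocyte genes 0 rose and 1 fell, which 0 did after quantile normalization or cyclic loess, with means of 4.02 to 4.77 and 4.02 to 4.69. No call was made by limma on the deposited values among 10 macrophage, 10 stellate cell and 6 adipocyte genes, whose means overlapped between groups. After quantile normalization 1 of the stellate cell genes was called lower. No marker is at 0 on this scale, but 5 adipocyte and 3 lymphocyte genes lay below the median of every array. The part of these cells in the falls of the enzyme genes was not tested.

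Apart from Ctrc, the genes lay close to the top of what the arrays recorded. Ctrb1 was 0.324 to 0.427 below the array maximum in knockout arrays and 0.191 to 0.28 below it in wild type arrays. For Cela1, the dimmest of the 6, these distances were 1.19 to 1.38 and 0.618 to 0.8. The order of signal in wild type pancreas was Ctrb1 (14.08), Cpa1 (13.93), Cela3b (13.86), Ctrl (13.85), Cpb1 (13.62) and Cela1 (13.61). Cela3b and Ctrl, and likewise Cpb1 and Cela1, did not differ in signal beyond their SDs (0.0351 and 0.0525 for the first pair, 0.0505 and 0.0769 for the second). These are signals of different probe sets, not corrected for length, so the order does not rank RNA amounts.

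Among these 6 genes the difference was nearest to 0 in the brightest and farthest from 0 in the dimmest, being -0.13 for Ctrb1, -0.16 for Cpa1, -0.26 for Cela3b, -0.30 for Ctrl, -0.32 for Cpb1 and -0.56 for Cela1. This is a description over 6 genes on shared arrays. Cpb1 and Cela1 had these 2 differences at like signal. Of genes outside the list, Clps (13.89 in wild type pancreas) at -0.24 kept to the order, while Try5 (13.59) at -0.06 did not. Whether signals this close to the maximum still follow the amount of RNA was not tested, so the sizes of these falls are rough, and a small difference in Ctrb1 or Cpa1 does not show an unchanged amount.

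Unequal change between genes was examined by the log2 ratio within each array, in which a scaling common to the array cancels, for all 21 pairs of the 7 genes. In 11 pairs the ratios of the groups did not overlap. Each of these had the smallest exact two-sided permutation p possible, 0.0286, which was 0.0545 after Benjamini-Hochberg adjustment over the 21 pairs, so 0 pairs passed. Because every p sits at or above that floor, the count that passes depends on how many pairs reach it and says nothing of any single pair. The difference of Cela1 was the more negative one in all 5 pairs with genes other than Ctrc. Its log2 ratio to Ctrb1 was -0.96 to -0.86 in knockout arrays and -0.55 to -0.43 in wild type arrays, and its ratio to Cpb1, of like signal, -0.27 to -0.19 and -0.10 to 0.03. Without knockout replicate 1, 16 pairs passed, by the same arithmetic.

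A signal of at least 13, a level set after the data had been seen, was reached by the mean of 30 genes. Of these, 12 fell (40%) and 0 rose, and every knockout array lay below every wild type array for 56.7%. The list's 6 genes at this level made up 4 of the 12 falls, and 8 of the other 24 genes fell. The median difference of the 30 genes was -0.15. The 24 others included the ribosomal RNA gene Rn28s1 (-0.01) and the translation factor gene Eef1a1 (0.19), neither of which passed the test (adjusted p = 0.92 and 0.0637).

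**Figure D3:**
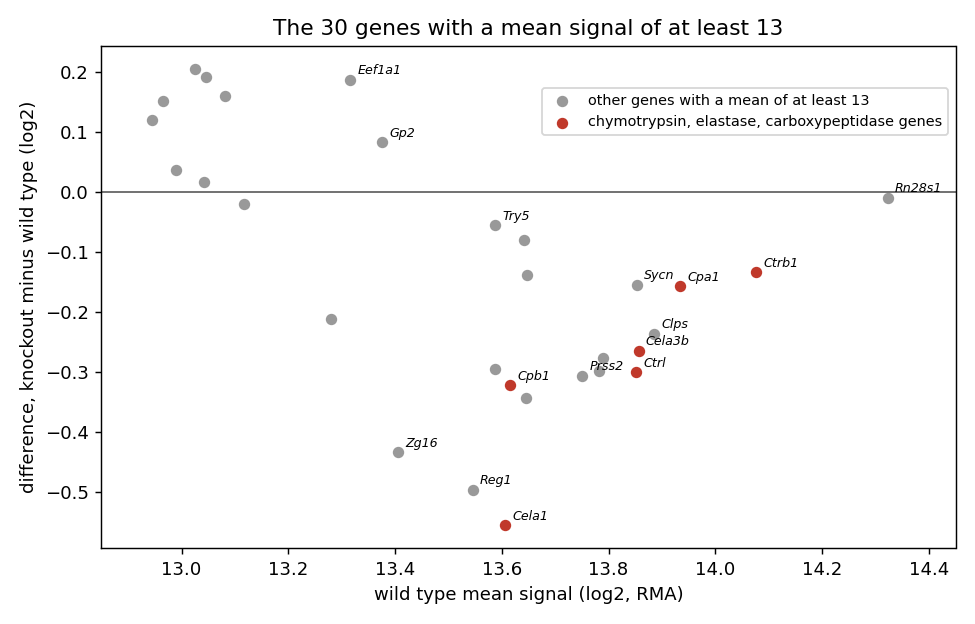
Difference in log2 signal (Sel1L knockout minus wild type) against the wild type mean for the 30 genes with a mean signal of at least 13. Points are genes, with the chymotrypsin, elastase and carboxypeptidase genes in red, which run from -0.56 for Cela1 to -0.13 for Ctrb1.

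The deposited arrays differed in the shape of this upper end. The feature ranked 30 by brightness had a signal of 13.27 to 13.40 in knockout arrays, against 13.53 to 13.63 in wild type arrays. The feature ranked 500 was brighter in the knockout arrays, with 11.75 to 11.78 in knockout arrays and 11.66 to 11.69 in wild type arrays. Quantile normalization gives features of equal rank equal values, and it left Cela1 as the only call among the 7, at -0.41. By rank alone, Cela1 stood at 46 to 63 in knockout arrays and 24 to 31 in wild type arrays, and Cpb1 at 30 to 34 and 25 to 29, which do not overlap either. Cela3b ranked 11 to 14 in knockout arrays and 7 to 13 in wild type arrays, and Ctrl 12 to 15 and 10 to 13, so their ranks did overlap.

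Other digestive enzymes mostly fell as well on the deposited values, where 12.6% of all genes did. Of 14 measured genes of trypsinogens, enteropeptidase (which activates trypsinogen in the gut and is not an acinar product), lipases, colipase, phospholipase, amylases and nucleases (22 were listed), 9 fell and 1 rose, with a median of -0.28. Among the trypsinogens and enteropeptidase 3 of 6 fell and 0 rose, Try4 by 0.80 (SE 0.144), Try10 by 0.51 (SE 0.107) and Prss2 by 0.31 (SE 0.0774). The trypsinogen Try5, with a mean signal of 13.53 in knockout and 13.59 in wild type pancreas, did not pass (-0.06, adjusted p = 0.601), and its difference was 0.20 after quantile normalization. Of 5 lipase, colipase and phospholipase genes 4 fell, among them Pla2g1b, a secreted phospholipase, by 0.80 (SE 0.0731) and Cel, carboxyl ester lipase, by 0.34 (SE 0.0733). The amylase gene Amy1 was the 1 gene of these 14 that rose (1.12, SE 0.108). The Amy2a and Amy2b amylase genes were listed but not measured, so the rise holds for the Amy1 feature only. Rnase1 and Dnase1 fell by 0.30 (SE 0.0708) and 0.27 (SE 0.0863) (the Dnase1 signal lay below the median of every array). After quantile normalization 2 trypsinogen genes, 1 lipase gene and 0 nuclease genes were called lower. These families hold close copies whose features may share signal.

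Of 10 measured zymogen granule genes 3 fell and 1 rose, where 12.6% of all genes fell and 16.1% rose. Cuzd1, a granule membrane protein gene, fell by 1.02 (SE 0.113) and Zg16, the gene of a granule lectin, by 0.43 (SE 0.0741), while Vamp2, a SNARE of granule release, rose by 0.39 (SE 0.0701). Of 10 measured acinar transcription factors 3 fell and 3 rose, against 4 and 1 after quantile normalization or cyclic loess. Bhlha15 (Mist1), which promotes the secretory architecture of the acinar cell, fell by 0.76 (SE 0.084). Xbp1 fell by 0.50 (limma adjusted p = 0.0215) and Gata4 by 0.38 (SE 0.096). Those that rose were Prox1 (1.00, SE 0.179), Nr0b2 (0.49, SE 0.148) and Tcf3, which encodes an E protein (0.33, SE 0.0794). Ptf1a, of the PTF1 complex, did not pass the test (-0.14, adjusted p = 0.42), nor did Nr5a2, a nuclear receptor that binds acinar enzyme genes (-0.22, adjusted p = 0.0539). Nr5a2 did pass, as lower, after quantile normalization, median centring and cyclic loess (limma adjusted p = 0.0201, 0.018 and 0.0134), and Tcf3 did not after quantile normalization or cyclic loess (0.179 and 0.135).

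Carboxypeptidase and elastase genes outside the list went both ways, with 4 of 13 lower and 2 higher and a median of -0.11 on the deposited values. Over all genes 12.6% were lower and 16.1% higher on these values. After quantile normalization or cyclic loess 3 genes of the 13 were lower and 1 higher, with medians of -0.07 and -0.0007. Cpn1, which encodes the catalytic chain of a plasma carboxypeptidase, fell by 0.95 (SE 0.102), and Cpe, which trims prohormones in endocrine cells, fell by 0.82 (SE 0.2) with overlapping groups. Cpa3, the carboxypeptidase of mast cells, rose by 0.54 (SE 0.109), at a low signal of 6.37 ± 0.102 in knockout and 5.83 ± 0.199 in wild type pancreas (SD, n = 4 each).

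**Figure D4:**
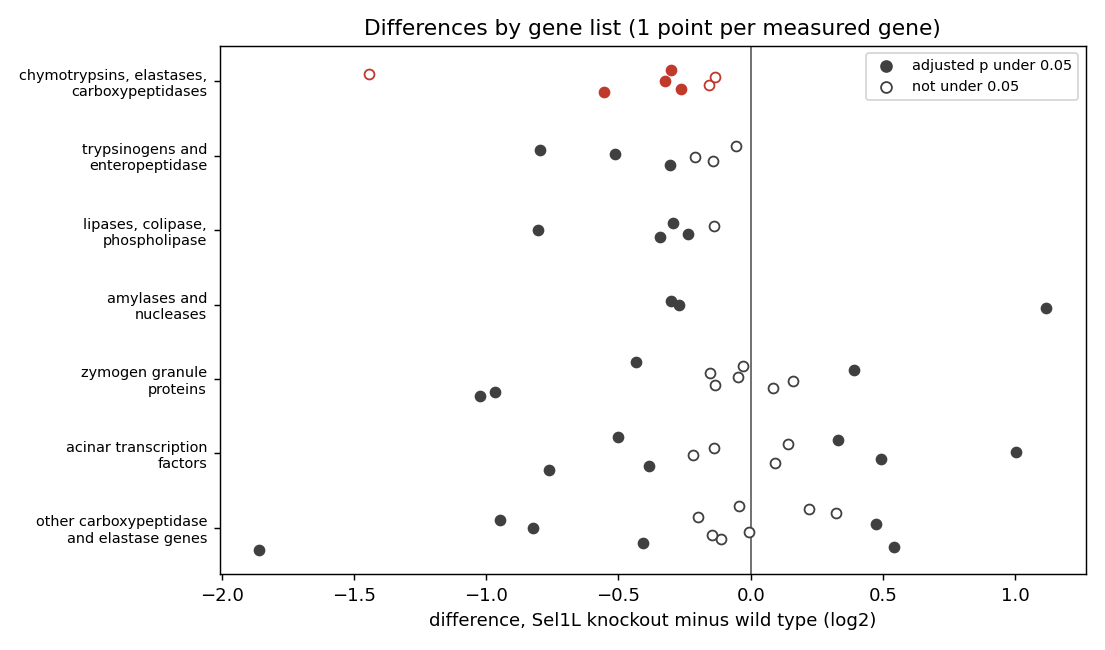
Difference in log2 signal, Sel1L knockout minus wild type, of every measured gene on 7 lists, with 1 point per gene, filled where limma's adjusted p was under 0.05. On the first row 4 of 7 points are filled and all lie below 0, and the point at -1.44 is Ctrc.

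By likeness of profile over the 8 arrays (root mean square distance after each gene's mean was removed), the genes closest to the mean of the 7 were Adh1, Rlbp1, Spag4, Erich4 and Gm13889, at distances of 0.0476 to 0.0815. The wide spread of Ctrc shapes that mean. Left out, a step chosen after its values were seen, the closest were Cox7b, 2210010C04Rik, Pcbd1, Rnase1 and Clps, at 0.0199 to 0.034. Rnase1 and Clps encode pancreatic ribonuclease and colipase, and Cox7b a subunit of the respiratory chain, whose difference was -0.28. No gene came as close to the profile of Ctrc itself. The nearest were Itgb2, a leukocyte integrin gene, at 0.782, and Acp5, Klk1b7-ps, Gda and Lfng, at 0.802 to 0.837.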

How the data were processed

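Pancreas RNA of 4 Sel1L knockout and 4 wild type samples was profiled on biotin-labelled arrays. The deposited log2 values were made with RMA, per the submitters' processing notes; the sources used here give no version, chip definition or set of arrays normalized jointly, and the log base is inferred from RMA and the range of values. Of 35556 features, 21218 had 1 gene symbol in GEO's platform annotation, 1881 several and 12457 none. Only those with 1 symbol were used, and the feature with the highest mean was kept per gene (2398 left out), giving 18820 genes. Entrez identifiers of 21185 features were found in the RefSeq table (GRCm38.p6), which changed 0 symbols.

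Genotype was fitted with limma 3.58.1 in R 4.3.3 (lmFit, eBayes, 6 residual degrees of freedom, Benjamini-Hochberg over all genes). Single values and pairs of genes were tested by exact permutation over arrays. No filter on dim genes was applied. The fit was tested on simulated data. The genes and lists were chosen with earlier results of these data known. Named genes were Sel1l, the members, up to 4 genes per list by p, and the 5 nearest profiles. Try5, Xbp1, Ptf1a, Nr5a2, Nr0b2, Rn28s1, Eef1a1 and the markers were named after their values were seen. So were the profiles near Ctrc, those near the members without Ctrc, and the other genes with the joint promoter pattern. The alternatives were 3 normalizations, a filter on dim genes, 2 treatments of features, other variance models, array weights, the replicate block, and leaving out each array. Figures were drawn with matplotlib 3.10.9.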

Additional observations from a re-analysis of the deposited data

How the results depend on the processing

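The difference stayed negative for all 7 genes under each of the 18 settings, and 0 genes were called higher under any. Of 126 values, 116 kept their side of the threshold, 4 lost the call and 6 gained it. Quantile normalization left 1 gene lower, with a median of -0.0538, and Cela3b (-0.0395), Ctrl (-0.0538) and Cpb1 (-0.0898) were no longer called. That 1 of the 7 genes is close to the share of all genes that were lower under the same scaling. Centring arrays on their medians, under which the median of all genes was -0.11 in place of -0.04, called 6 genes, with a median of -0.38, adding Ctrb1 (-0.21, adjusted p = 0.0434) and Cpa1 (-0.23, adjusted p = 0.03). Trend and robust variance called both as well, at unchanged differences of -0.13 and -0.16 (adjusted p = 0.0134 and 0.00684), and testing only genes above the median level, whose median difference was 0.13, called Cpa1 at -0.16 (adjusted p = 0.0436). With the replicate block 3 genes were called, Cela3b at -0.26 having an adjusted p of 0.0533. Deviations of same-numbered arrays of the groups had correlations of 0.222, 0.153, -0.273 and -0.0195 across genes. These few values, mixed in sign, cannot decide whether the numbers pair the samples. Leaving out each array in turn gave 4 to 5 genes lower and a median of -0.32 to -0.28. The differences then ranged from -2.11 to -1.04 for Ctrc, from -0.59 to -0.53 for Cela1 and from -0.35 to -0.31 for Cpb1. The pairs with unequal change numbered 0 to 16, with 16 only without Sel1L knockout replicate 1. Counting the shared Cela2a feature, added after seeing the data, gave 5 lower. Whether signal close to the array maximum limits these differences was not tested.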
